A study of Mus musculus with 3 samples.

Results

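Ltf-rich cells are cell barcodes of mouse cochlea that were chosen by their own UMI counts. A barcode had to hold at least 500 UMIs (single captured RNA molecules), at least 200 genes and at most 20% mitochondrial UMIs. Ngp, Camp and Ltf together had to make up at least 200 of every 10000 UMIs of the cell, and Ltf alone at least 20. Of 37188 cells that passed the quality limits, 8677 met the rule, which is 23.3% (exact Clopper-Pearson 95% interval 22.9 to 23.8). Since the members were selected on Ltf, Ngp and Camp, the levels of these 3 genes describe the choice, and comparisons with other neutrophil cells are descriptions.

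The cells come from cochleae of C57BL/6J mice with no altered gene named in the labels. The HHL group (hidden hearing loss) heard noise of 110 dB for 2 h, the NIHL group (noise-induced hearing loss) heard 115 dB for 4 h for 3 days, and both were taken 6 h after the last noise. The control group heard no noise and was otherwise treated alike. Each group is 1 library pooled from 6 mice, and no age is stated in what was used here. All cells stand in 1 table in which a barcode ends in 1, 2 or 3, and no label says which ending belongs to which group. They are therefore named libraries 1, 2 and 3 and are not compared as control, HHL and NIHL. There are no replicates, so no test was made, and every interval covers counting error only.

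Neutrophils form in bone marrow in steps that are marked by the granules they build. Promyelocytes make primary granules with the proteases Elane, Prtn3 and Ctsg and the peroxidase Mpo. Myelocytes and metamyelocytes then make secondary granules, which carry Ltf (lactoferrin, an iron-binding protein), Camp (the precursor of an antimicrobial peptide), Ngp (neutrophilic granule protein) and Lcn2 (lipocalin 2, which binds bacterial siderophores). Division stops in the course of these steps, and band and segmented cells take up Cxcr2, the chemokine receptor used to enter blood. The temporal bone around the cochlea holds marrow, and how much of it entered the dissections is not stated in what was used here.

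The upstream sequences of the 4 secondary granule genes that carry the description are shown because C/EBP epsilon, the factor that mice need to make secondary granule proteins, belongs to a family that binds such upstream DNA. Each line gives the 250 bases before the RefSeq start of the gene, 5′ to 3′ on the gene's strand, from RefSeq on GRCm38.p6, and capitals mark each match to the C/EBP motif TTGCNNAA on either strand (TTNNGCAA on the other). Ltf lies on the plus strand at chr9:111019042-111019291, Ngp on the plus strand at chr9:110419558-110419807, Camp on the minus strand at chr9:109849457-109849706 and Lcn2 on the minus strand at chr2:32387740-32387989.
Ltf: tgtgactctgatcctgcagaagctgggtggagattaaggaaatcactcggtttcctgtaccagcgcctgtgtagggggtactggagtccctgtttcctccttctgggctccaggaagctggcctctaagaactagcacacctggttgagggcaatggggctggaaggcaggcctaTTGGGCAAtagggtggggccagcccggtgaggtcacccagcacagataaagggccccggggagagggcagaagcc
Ngp: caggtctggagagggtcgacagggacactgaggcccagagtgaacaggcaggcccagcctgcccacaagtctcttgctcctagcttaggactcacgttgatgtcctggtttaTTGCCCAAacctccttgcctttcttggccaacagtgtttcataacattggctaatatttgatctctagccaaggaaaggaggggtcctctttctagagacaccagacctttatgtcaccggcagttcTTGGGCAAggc
Camp: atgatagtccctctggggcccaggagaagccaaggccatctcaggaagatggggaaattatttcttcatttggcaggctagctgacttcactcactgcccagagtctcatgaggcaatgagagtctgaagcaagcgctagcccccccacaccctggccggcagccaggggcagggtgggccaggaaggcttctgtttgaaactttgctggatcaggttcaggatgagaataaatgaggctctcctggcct
Lcn2: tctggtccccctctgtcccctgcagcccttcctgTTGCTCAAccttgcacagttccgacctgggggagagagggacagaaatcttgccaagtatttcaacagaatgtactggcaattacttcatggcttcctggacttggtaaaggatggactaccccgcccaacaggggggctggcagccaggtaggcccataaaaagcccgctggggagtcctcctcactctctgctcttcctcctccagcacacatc
The Ltf sequence has 1 match, at bases 75 to 68 before the start. Ngp has 2, at bases 138 to 131 and 11 to 4, and Lcn2 has 1, at bases 216 to 209. The Camp sequence holds none of these letters in this window. Of all 32851 promoters in the table, 9.56% hold a match, against 4 of 16 secondary granule genes found in the table (25%: Adam8, Anxa1, Lcn2 and Mmp8), a list that leaves out Ltf, Ngp and Camp. The primary granule list had 2 of 12 (16.7%). Among genes measured in Ltf-rich cells the 2 lists had 4 of 15 and 0 of 9. A listed gene was counted if any of its promoters matched, while the 9.56% is over single promoters. The measures are thus unlike and the counts small, so nothing is read from these shares. A match is a string of letters and no measured binding.

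Ltf-rich cells numbered 6128 in library 1, 1194 in library 2 and 1355 in library 3. Library 1 had 36.3% of its kept cells in the gate (35.6 to 37.0), library 2 had 12.4% (11.8 to 13.1) and library 3 had 12.7% (12.04 to 13.3). Library 1 stood apart, and the intervals of libraries 2 and 3 overlapped. The gates for other cells of the lineage that were set beside them are also per 10000 UMIs. Ltf-low cells pass the sum of Ngp, Camp and Ltf but hold Ltf under 20. Promyelocyte-gate cells hold the sum under 200 with Elane, Mpo and Prtn3 together at 100 or more. Mature-gate cells hold the sum under 200 with S100a8 and S100a9 at 200 or more and Retnlg and Cxcr2 at 20 or more.

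Set against these cells and not against the whole cochlea, the 3 libraries all differed. Of the Ltf-rich, Ltf-low and mature-gate cells together, 62.4% (61.4 to 63.3) were Ltf-rich in library 1, 31.1% (29.6 to 32.6) in library 2 and 43.1% (41.4 to 44.9) in library 3. The Ltf-low gate was small everywhere, with 443, 126 and 137 cells in libraries 1, 2 and 3, so of all cells past the sum of the 3 genes 93.3%, 90.5% and 90.8% were Ltf-rich. The mature gate held 3251, 2519 and 1650 cells. It shares 81, 24 and 24 cells with the promyelocyte gate of 1313, 370 and 670 cells. These shares count captured cells, and how many came from marrow, blood or cochlear tissue cannot be told apart.

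**Figure D1:**
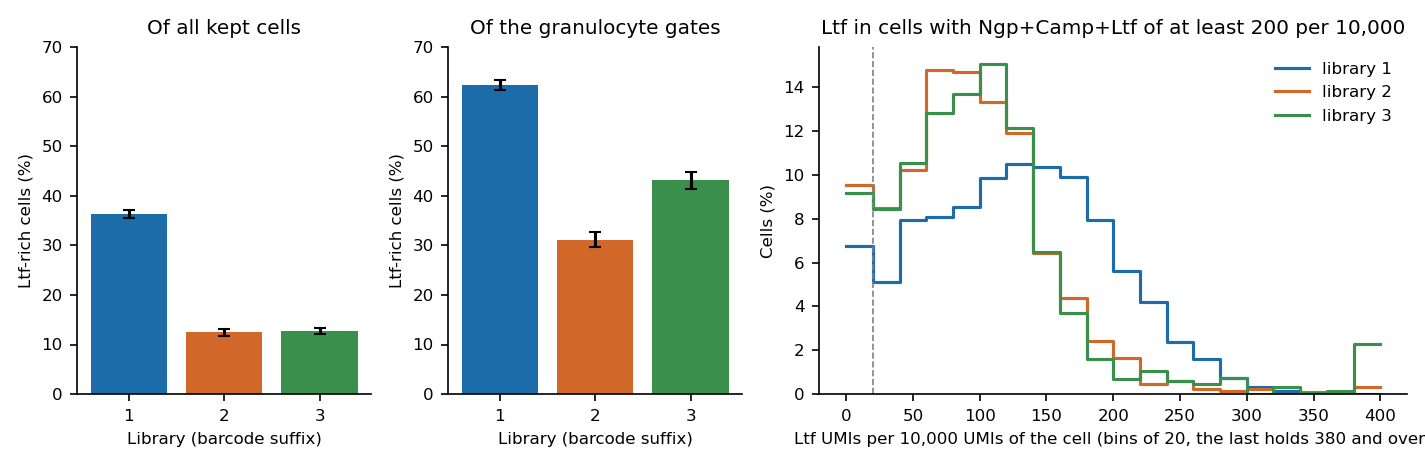
Bars give Ltf-rich cells as a percent of all kept cells (left) and of the Ltf-rich, Ltf-low and mature gates together (middle) in each library, with exact 95% intervals for counting error. Lines (right) give the percent of cells by Ltf per 10000 UMIs among cells with Ngp, Camp and Ltf at 200 or more, in bins of 20, with the dashed line at the minimum of 20 and library 1 lying to the right of libraries 2 and 3.

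Depth differed between libraries. Ltf-rich cells had a median of 1876, 1850.5 and 2134 genes in libraries 1, 2 and 3, and 6.76%, 6.20% and 5.83% of them were called doublets, which were kept. Cell barcodes shared between libraries were few, with 1 common to libraries 1 and 2, 2 to libraries 1 and 3 and 1 to libraries 2 and 3 among Ltf-rich cells.

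Ltf itself did not sit at one level. Its median was 134 per 10000 UMIs in Ltf-rich cells of library 1, 95.9 in library 2 and 99.96 in library 3, and the lowest 5% of cells lay under 38.4, 31.9 and 32.2. Summed over cells, Ltf made up 11857, 9139 and 9296 CPM (the gene's UMIs scaled to a common library total) in libraries 1, 2 and 3. Ngp stood at 31590, 31592 and 33163 CPM and Camp at 33005, 33595 and 30235 CPM. Library 1 had the highest Ltf level, while Ngp and Camp differed by at most 1.05-fold and 1.11-fold between libraries.

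The minimum on Ltf cuts through a continuous range. Cells within 5 per 10000 above it (56, 26 and 25 in libraries 1, 2 and 3) had 4820, 5358 and 7028 CPM of Lcn2, and cells within 5 below it (62, 24 and 25) had 4237, 5102 and 8076 CPM. Fcnb, which encodes ficolin B of early neutrophils, stood at 1938, 1327 and 467 CPM just inside and at 1870, 1332 and 923 CPM just outside. Lcn2 on the 2 sides of the minimum lay closer together than Lcn2 in the 2 gates as a whole, which is given further on. At the other edge, cells just inside the minimum of 200 for the sum (190, 78 and 62) had 18521, 19854 and 9290 CPM of Retnlg, a gene of mature neutrophils, against 15586, 22376 and 12355 CPM just outside it (191, 55 and 70 cells). A further 367, 107 and 182 cells passed the minimum on Ltf but not the one on the sum.

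Lcn2 and Cd177, which the rule did not use directly, check the name late immature neutrophil. After every cell was thinned to 1000 UMIs, Lcn2 was seen in 99.9%, 99.7% and 100% of Ltf-rich cells in libraries 1, 2 and 3 (50, 27 and 43 cells with fewer UMIs left out), against 84.8%, 78.4% and 92.5% of Ltf-low cells and 84.6%, 76.8% and 86.0% of mature-gate cells. It was seen in 21.1%, 11.7% and 24.1% of the cells outside all 4 gates. The part of free RNA in the droplets in these shares was not tested. Cd177, a surface protein stored in secondary granules, was seen in 72.9% (71.8 to 74.0), 70.6% (67.9 to 73.2) and 67.2% (64.6 to 69.8). It was seen in 28.6%, 27.2% and 38.1% of Ltf-low cells, in 42.9%, 28.4% and 33.0% of mature-gate cells and in 3.44%, 2.50% and 1.79% of cells outside the gates. Median depths were 6106.5, 7639 and 10104 UMIs in Ltf-rich cells and 5616, 7449 and 9182 UMIs outside the gates. Both markers were thus seen more often in Ltf-rich cells than in each set named here. The RNA of dividing cells described further on goes against reading late as past division, so the cells are called Ltf-rich.

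Against Ltf-low cells, Ltf-rich cells held little primary granule RNA and more RNA of late granules, gelatinase granules and mature neutrophils. A gene was called here where its CPM was at least 2-fold higher or lower in Ltf-rich cells within each of the 3 libraries. Of 2749 genes measured, 132 (4.8%) were higher and 153 (5.57%) were lower. The choice of the cells used Ltf, so these counts describe it and nothing is read from their size, and an Ltf-low cell and an Ltf-rich one differ by definition in Ltf (631, 597 and 631 CPM in Ltf-low cells).

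Elane, which encodes neutrophil elastase, stood at 461, 176 and 379 CPM in Ltf-rich cells of libraries 1, 2 and 3, against 4708, 6020 and 6859 CPM in Ltf-low cells. All 3 libraries lay far below the Ltf-low cells, with a median ratio of 0.0552. Mpo, the myeloperoxidase gene, had 355, 87.9 and 196 CPM in Ltf-rich cells, against 2194, 1964 and 2173 CPM in Ltf-low cells. Prtn3, which encodes proteinase 3, had 599, 189 and 675 CPM in Ltf-rich cells, against 4582, 4188 and 7006 CPM in Ltf-low cells. Of 11 genes of the primary granule list measured 9 were called lower and none higher, with a median log2 ratio of -2.97, beside -0.12 over all genes. A place on a granule list does not mean that the protein lies in the granule. The others called were Ctsg (cathepsin G), Prss57, Ms4a3, Gstm1, Cst7 and Nkg7. Tnfsf13 was also among the 10 genes with the lowest ratios, with 14.3, 12.3 and 11.2 CPM in Ltf-rich cells, against 58.1, 68.1 and 66.0 CPM in Ltf-low cells.

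Of 18 secondary granule and late granule genes 7 were called higher and none lower, with a median log2 ratio of 0.97. Mmp8, the neutrophil collagenase, had 1368, 1526 and 1467 CPM in Ltf-rich cells, against 198, 302 and 449 CPM in Ltf-low cells. Lcn2 had 11315, 12326 and 17730 CPM in Ltf-rich cells, against 2584, 3264 and 5120 CPM in Ltf-low cells. Both genes separated the gates in every library. Cd177 had 1275, 1217 and 1129 CPM in Ltf-rich cells, against 356, 302 and 378 CPM in Ltf-low cells. Camp did not follow: it stood at 28653, 42076 and 32877 CPM in Ltf-low cells, so it was higher in Ltf-rich cells only in library 1. Chil3, a chitinase-like protein of early and late immature neutrophils, had 7775, 6065 and 6843 CPM in Ltf-rich cells, against 4853, 4315 and 3906 CPM in Ltf-low cells, and was not called.

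Of 7 gelatinase granule genes, Mmp9 (gelatinase B), Mmp25 and Plaur were called higher and Fcnb lower. Mmp9 had 1012, 1380 and 947 CPM in Ltf-rich cells, against 116, 248 and 217 CPM in Ltf-low cells. Fcnb had 707, 458 and 559 CPM in Ltf-rich cells, against 2287, 2395 and 1408 CPM in Ltf-low cells. The 2 genes thus stood in opposite order although they are listed together. Of 20 genes of band and segmented neutrophils 9 were called higher, among them Fpr2, a formyl peptide receptor with 322, 303 and 284 CPM in Ltf-rich cells, against 25.7, 34.1 and 51.8 CPM in Ltf-low cells. Cxcr2 had 249, 213 and 306 CPM in Ltf-rich cells, against 82.3, 62.2 and 106 CPM in Ltf-low cells.

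The largest median fold after Ltf was that of Ly6g. Ly6g, the antigen by which mouse neutrophils are sorted, had 698, 915 and 498 CPM in Ltf-rich cells, against 59.8, 77.5 and 75.7 CPM in Ltf-low cells, a median ratio of 11.7. St3gal5, a sialyltransferase of ganglioside synthesis, followed with a median ratio of 10.5, and then Plbd1 (10.4), AA467197 (9.81), Fpr2 (8.90), Ifitm6 (8.89), Trp53inp2 (8.64), 6430548M08Rik (8.05) and 1700047M11Rik (6.64). Of 16 genes of DNA replication 5 were called lower (Tyms, Tk1, Dut, Hells and Tipin), for example Dut, a nucleotide-pool enzyme, with 98.3, 84.8 and 96.4 CPM in Ltf-rich cells, against 264, 309 and 286 CPM in Ltf-low cells. Of 22 genes of mitosis none was called in either direction. Cebpe, which encodes C/EBP epsilon, had 399, 277 and 472 CPM in Ltf-rich cells, against 456, 323 and 596 CPM in Ltf-low cells, and was not called either.

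**Figure D2:**
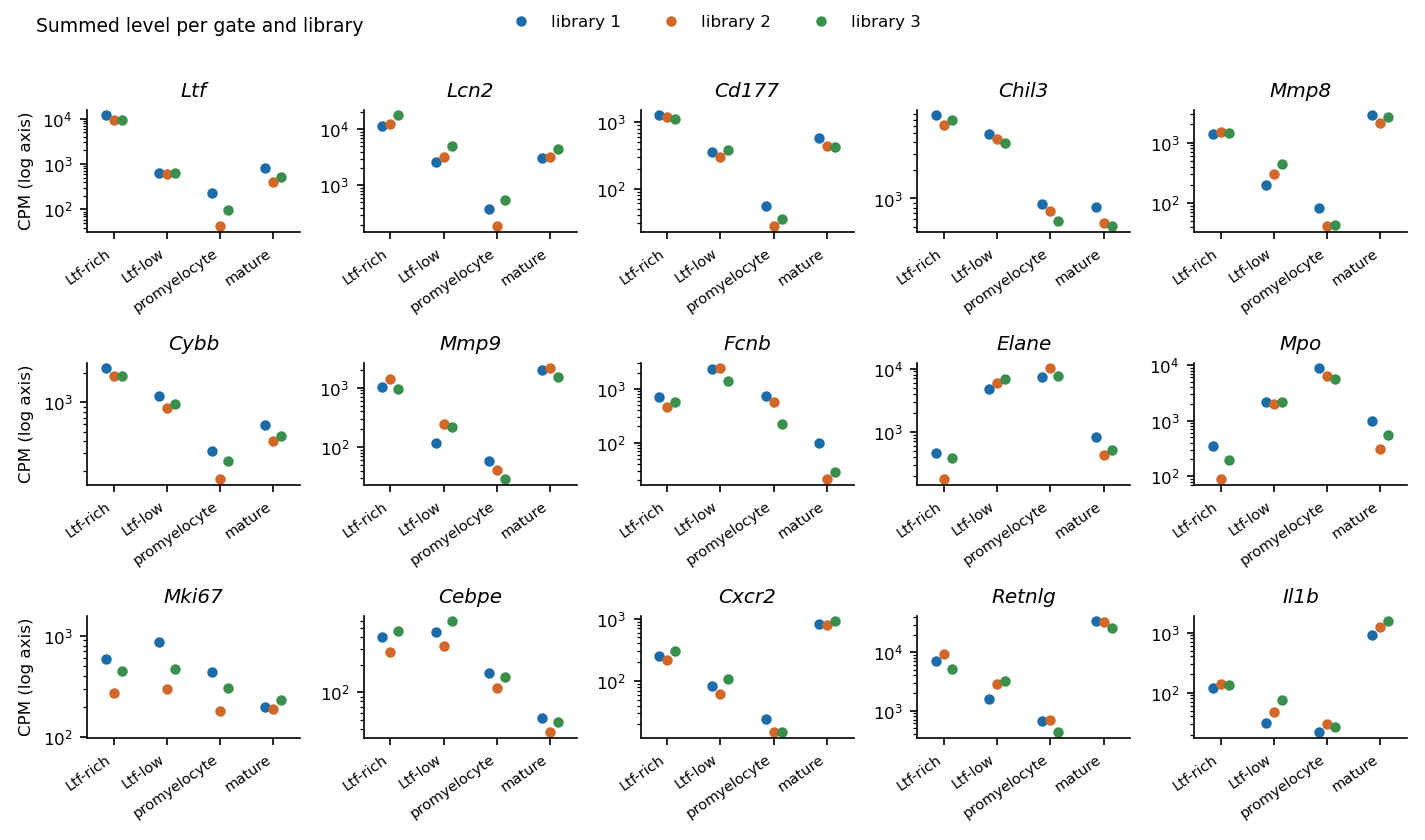
Points give the summed level (CPM, log axis) of 15 genes in Ltf-rich, Ltf-low, promyelocyte-gate and mature-gate cells of the 3 libraries. Ltf, Lcn2 and Cd177 peak in Ltf-rich cells, Elane and Mpo in the promyelocyte gate, and Retnlg, Cxcr2 and Il1b in the mature gate, while Mmp8 and Mmp9 are higher in the mature gate than in Ltf-rich cells.

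Against mature-gate cells, 8 of 18 genes of the secondary granule list were called higher in Ltf-rich cells and 1 lower. Of 20 mitosis genes 5 were called higher, while genes of cytokines and of mature neutrophils were called lower. Of 2837 genes measured 81 (2.86%) were called higher and 271 (9.55%) lower in all 3 libraries. Orm1, which encodes an acute-phase glycoprotein, had 122, 154 and 191 CPM in Ltf-rich cells, against 4.02, 1.98 and 4.46 CPM in mature-gate cells, the largest median ratio at 42.9. The member of the secondary granule list called lower was Arg2, an arginase. It had 18.7, 18.01 and 22.8 CPM in Ltf-rich cells, against 97.5, 97.9 and 145 CPM in mature-gate cells. Of 10 myeloid transcription factor genes Cebpe was called higher and Cebpb, Irf8 and Junb lower. Cebpe had 53.2, 36.6 and 47.3 CPM in mature-gate cells, a median ratio of 7.57. Cybb, the catalytic subunit of the phagocyte oxidase, had 2231, 1870 and 1865 CPM in Ltf-rich cells, against 591, 401 and 454 CPM in mature-gate cells, and was the only one called of 11 oxidase genes measured.

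Among 14 genes of cytokines and activation 10 were called lower in Ltf-rich than in mature-gate cells and none higher. Il1b, which encodes interleukin 1 beta, had 119, 141 and 135 CPM in Ltf-rich cells, against 907, 1246 and 1528 CPM in mature-gate cells. Retnlg, a resistin-like secreted protein, had 7052, 9208 and 5165 CPM in Ltf-rich cells, against 33950, 33495 and 26617 CPM in mature-gate cells. Il1b lay far apart in the 2 gates in each library, while the gap in Retnlg is set by the choice of mature-gate cells, which used Retnlg and Cxcr2. Of 20 mature neutrophil genes 11 were lower, the rule's Retnlg and Cxcr2 included, and among the others Csf3r, the receptor for G-CSF, with 149, 151 and 98.8 CPM in Ltf-rich cells, against 534, 695 and 467 CPM in mature-gate cells. Of 12 immediate-early genes 5 were lower. Mmp8 and Mmp9 were not called. In the primary granule list Serpinb1a, an inhibitor of neutrophil proteases, was called higher in Ltf-rich cells, with 578, 466 and 933 CPM against 123, 72.2 and 154 CPM in mature-gate cells. Mpo, Ctsg and Ctsc of the same list were called lower in Ltf-rich than in mature-gate cells, with 973, 304 and 549 CPM of Mpo in the mature gate. The mature gate shares its cells with the promyelocyte gate in the numbers given above, and the part of these cells was not tested.

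Among Ltf-rich cells, Lcn2 and Cd177 were higher, and Elane and Fcnb mostly lower, where Ltf was higher, which is a description of cells chosen on Ltf. The cells were divided at 50, 100 and 200 Ltf per 10000 UMIs, and levels are CPM with Ngp, Camp and Ltf left out of the total. The 4 ranges held 577, 1370, 3195 and 986 cells in library 1, 181, 455, 508 and 50 cells in library 2, and 190, 488, 582 and 95 cells in library 3. From the lowest to the highest range the level of Lcn2 was 5888, 9022, 14621 and 19209 in library 1, 7767, 12724, 16712 and 17715 in library 2, and 11410, 18199, 23277 and 27077 in library 3. Lcn2 was higher at every step in each library. Cd177 went the same way, with 657, 1011, 1652 and 2168 in library 1, 758, 1205, 1683 and 2367 in library 2, and 685, 1107, 1492 and 3137 in library 3. Cybb, Lyz2 (lysozyme) and Itgam (the integrin alpha M chain) were also higher at each step in all 3 libraries.

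Elane ran the other way over the first 3 ranges, with 1959, 649 and 92.7 in library 1, 643, 110 and 58.4 in library 2, and 1225, 331 and 121 in library 3. In the highest range it was 59.0 in library 1, 91.4 in library 2 and 256 in library 3, so it was lower again only in library 1. Fcnb had 1242, 894, 635 and 360 in library 1, and 746, 520, 349 and 212 in library 2. In library 3 it had 886, 638, 425 and 837, again with a higher value in the last range. Pcna, the sliding clamp of DNA replication, had 302, 236, 186 and 84.4 in library 1, 234, 159, 131 and 120 in library 2, and 180, 120, 75.7 and 128 in library 3.

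The highest range of libraries 2 and 3 is made up in good part of shallow cells. In library 3, 59 of its 95 cells (62.1%) held under 1/3 of the median UMIs of the library's Ltf-rich cells, with a median of 1064 UMIs and 8.11% mitochondrial UMIs. In library 2 this applied to 18 of 50 cells (36%), and in library 1 to 25 of 986 (2.54%). Without the shallow cells, and with all UMIs in the total, Fcnb was 557 CPM in the highest range of library 3 and 389 CPM in the range below it, so the order was the same. Called doublets lay at the other end: they were 18.5%, 15.5% and 14.2% of the cells in the lowest range of libraries 1, 2 and 3, and 0.203%, 2.00% and 0 of 95 cells in the highest. Without them Elane in the lowest range was 1983, 760 and 1379 CPM, against 74.9, 54.5 and 112 CPM in the third range.

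**Figure D3:**
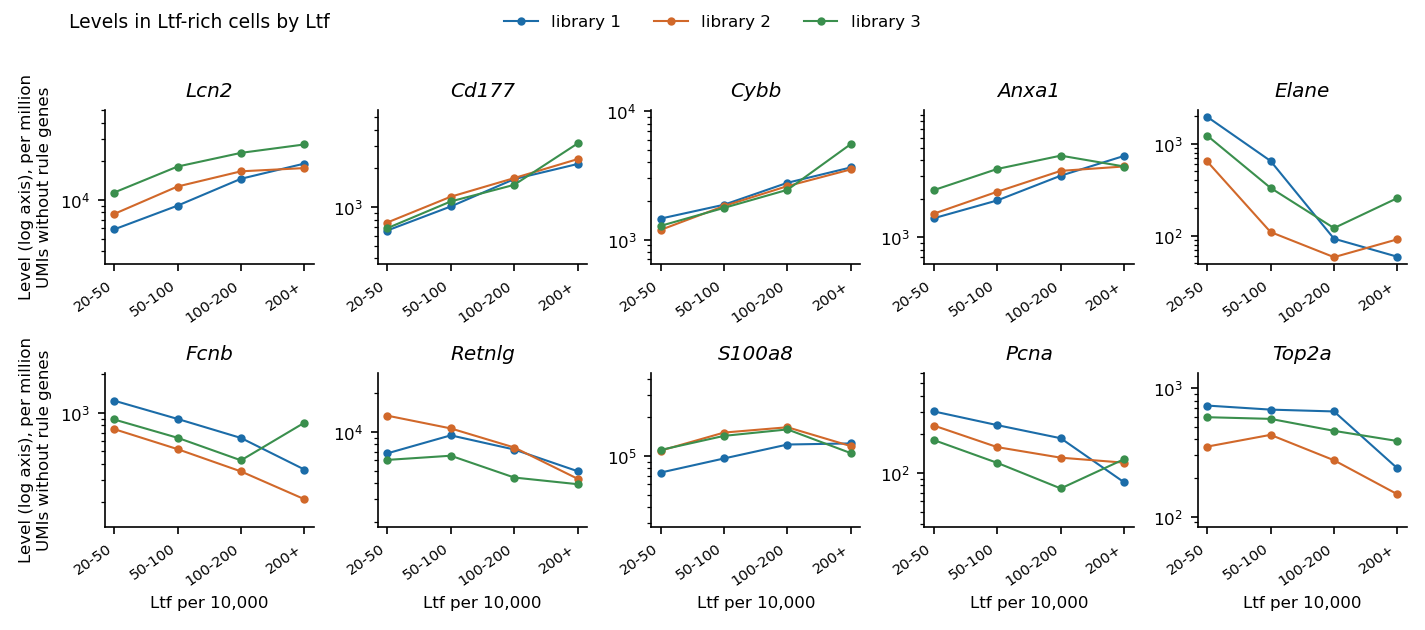
Lines give levels of 10 genes (CPM with Ngp, Camp and Ltf left out of the total, log axis) in 4 ranges of Ltf per 10000 UMIs among Ltf-rich cells of each library. Lcn2, Cd177 and Cybb climb with Ltf in all 3 libraries, and Elane and Fcnb decline up to 200 Ltf per 10000, above which both are higher in library 3 and Elane also in library 2.

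Many Ltf-rich cells held RNA of the mitotic cycle. The share of cells with at least 2 UMIs of a list of 24 mitosis genes at 1000 UMIs was 76.3% (75.3 to 77.4) in library 1, 72.9% (70.3 to 75.5) in library 2 and 69.6% (67.0 to 72.1) in library 3. In the mature gate the same share was 57.3%, 65.1% and 59.0%, which leaves it little contrast. The list holds Hmgb2, a chromatin protein that stood at 3813, 4174 and 3378 CPM in Ltf-rich cells and at 1911, 2201 and 1864 CPM in mature-gate cells. A list without Hmgb2, chosen after its values were seen, gave 38.5% (37.3 to 39.7), 31.1% (28.5 to 33.8) and 36.9% (34.3 to 39.6) of Ltf-rich cells in libraries 1, 2 and 3. It gave 80.0%, 62.4% and 70.1% of Ltf-low cells, 61.1%, 52.4% and 72.0% of promyelocyte-gate cells, and 7.99%, 9.98% and 12.5% of mature-gate cells. The Ltf-rich cells stood between the 2 neighbouring gates in every library. Without thinning the shares were 56.1%, 61.2% and 75.5% in Ltf-rich cells.

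Mki67, the proliferation marker Ki-67, had 588, 275 and 446 CPM in Ltf-rich cells, against 860, 299 and 467 CPM in Ltf-low cells and 200, 191 and 231 CPM in mature-gate cells. Library 2 was lowest in all 3 gates. Within Ltf-rich cells of library 1 the mitotic share was 54.9%, 48.7%, 40.6% and 12.2% from the lowest to the highest Ltf range, and the last step was the largest. Library 2 had 29.6%, 41.4%, 22.9% and 22.2%, and library 3 had 42.7%, 43.1%, 26.7% and 51.5%. In library 3 the last value rests on 68 cells deep enough, and another random thinning of the same cells gave 44.1%. Without shallow cells, in a further draw, it was 36.1% of 36 cells. How much of this gap comes from the draw was not tested. A phase is not called from these shares, since free RNA of dividing cells can add to them, and its part was not tested.

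**Figure D4:**
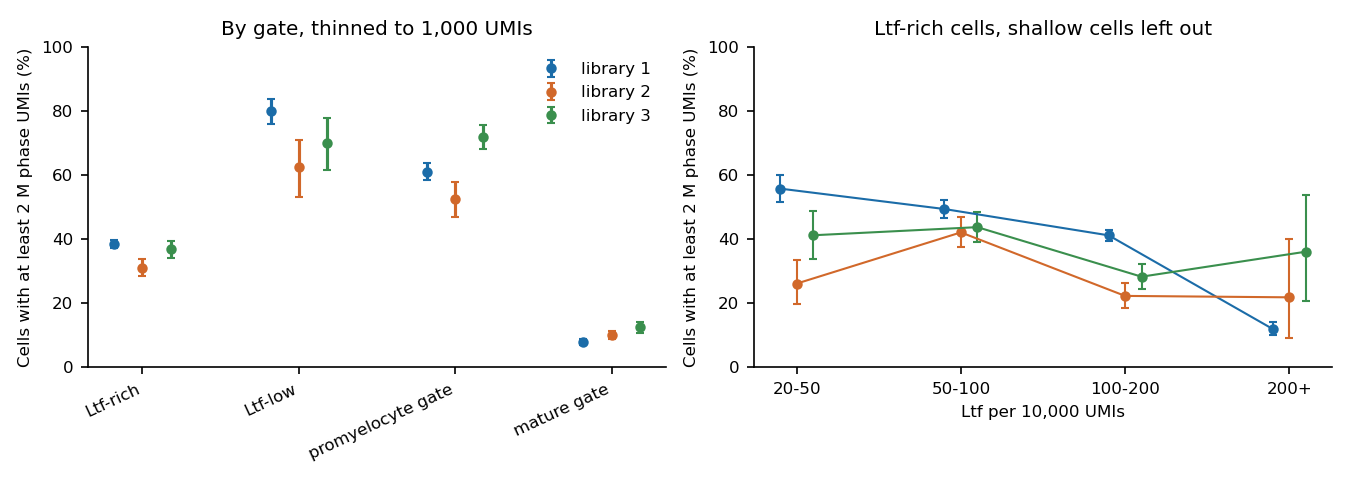
Points give the percent of cells with at least 2 UMIs of mitosis genes other than Hmgb2 after thinning to 1000 UMIs, by gate (left) and by Ltf range among Ltf-rich cells without shallow cells (right), with exact 95% intervals for counting error. Ltf-rich cells (38.5%, 31.1% and 36.9%) lie between Ltf-low and mature-gate cells in all 3 libraries.

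Between libraries, genes were compared on UMIs summed over the Ltf-rich cells of each, with 50122236, 11438391 and 17912556 UMIs in libraries 1, 2 and 3. A gene was called higher (or lower) in a library where its CPM was at least 2-fold above (or below) that of each of the other 2, among 2744 genes with at least 20 UMIs and 50 CPM in the highest library. A gene can pass this minimum only through the library in which it is then called higher, and such a call is a description. Library 3 had 31 genes higher (1.13%) and 19 lower (0.692%), or 61 and 5 with TMM factors, which scale for the makeup of each library. Library 2 had 22 higher (0.802%) and 12 lower (0.437%), and library 1 had 4 higher (0.146%) and 14 lower (0.51%). S100a8 and S100a9, the calprotectin subunits, took 100392 and 102698 CPM in library 1, 138076 and 145089 CPM in library 2, and 133450 and 148870 CPM in library 3. The median log2 ratio of a gene to the other 2 libraries was 0.30, -0.15 and -0.14 in libraries 1, 2 and 3 on this scale, and 0.03, -0.18 and 0.15 with the TMM factors, so single ratios are to be read against these medians.

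Of 20 listed type I interferon genes 19 had their highest level in library 3, whatever their level, and the other was Ifit2 with 11.5, 8.13 and 9.32 CPM in libraries 1, 2 and 3. The 20 genes summed to 1427, 1471 and 4849 CPM in libraries 1, 2 and 3, and to 623, 508 and 1637 CPM without Ifitm3, the one with the most RNA. With the minimum above 10 were called higher in library 3, but 9 of the 10 reached 50 CPM in library 3 only, so that count is a description. With no minimum 14 of the 20 were called higher in library 3, beside 1.14% of all 20343 genes. Only 13921 of those genes held at least 20 UMIs. In the rest, the floor of 3 counts set for a gene without UMIs bears on the calls. The share is thus no like background for the list, and this count is a description too. Isg15, a ubiquitin-like protein induced by interferon, had 26.0, 39.8 and 187 CPM in libraries 1, 2 and 3, so library 3 was 4.71-fold (4.27 to 5.20) above the nearer library. Ifitm3, a membrane protein that blocks virus entry, had 804, 963 and 3212 CPM. Irf7, the transcription factor that amplifies interferon production, had 19.9, 17.2 and 92.8 CPM. Library 3 lay apart from both others for all 3 genes.

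Zbp1, a sensor of nucleic acids in the Z form, had 22.5, 14.9 and 105 CPM in libraries 1, 2 and 3. Oasl2 had 42.9, 24.5 and 132 CPM, and Slfn5 had 17.6, 15.6 and 83.0 CPM. Ifit1, Rsad2 (viperin), Bst2 (tetherin) and Xaf1 were the others called. Among those measured but not called, Slfn4 had 185, 137 and 360 CPM and Cmpk2 had 63.9, 41.1 and 76.5 CPM. The remaining 7 listed genes, among them Ifit2 and Usp18, lay under 50 CPM in all 3 libraries. Of a list of 12 interferon gamma genes only 2 were measured, and the GTPase Gbp7 was called higher in library 3 with 22.8, 20.02 and 60.3 CPM. Gbp7 reached 50 CPM in library 3 only, and 1.13% of all genes were called higher there, so the call is a description. The 12 genes summed to 138, 137 and 265 CPM in libraries 1, 2 and 3.

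The upstream sequences of Isg15 and Bst2 are shown because the interferon-stimulated response element, to which the factors downstream of the interferon receptor bind, can be read in them. Each line gives the 250 bases before the RefSeq start, 5′ to 3′ on the gene's strand, from RefSeq on GRCm38.p6, and capitals mark each match to GAAANNGAAA (TTTCNNTTTC on the other strand). Isg15 lies on the minus strand at chr4:156200819-156201068 and Bst2 on the minus strand at chr8:71537473-71537722.
Isg15: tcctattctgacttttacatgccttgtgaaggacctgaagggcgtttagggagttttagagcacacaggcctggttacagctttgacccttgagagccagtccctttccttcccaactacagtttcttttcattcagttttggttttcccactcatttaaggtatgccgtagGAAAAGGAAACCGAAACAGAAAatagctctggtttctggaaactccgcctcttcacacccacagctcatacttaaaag
Bst2: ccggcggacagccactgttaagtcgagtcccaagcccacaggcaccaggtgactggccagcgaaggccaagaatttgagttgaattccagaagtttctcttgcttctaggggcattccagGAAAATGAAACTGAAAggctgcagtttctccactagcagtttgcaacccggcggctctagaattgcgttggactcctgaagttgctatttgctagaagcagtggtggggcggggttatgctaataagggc
Isg15 holds 3 matches that overlap one another, at bases 78 to 69, 72 to 63 and 66 to 57 before the start, and Bst2 holds 2 that overlap, at bases 130 to 121 and 124 to 115. Of the 20 listed interferon genes 17 are in the table, and 7 of them (41.2%) hold a match, among them Bst2, Ifit1, Ifit3, Isg15, Rsad2 and Slfn5. Over all 32851 single promoters of this length 2.98% do. A listed gene was counted if any of its promoters in the table held a match, so the 2 shares are unlike measures. No match says only that these letters are not in the window.

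Library 3 also had the highest sum of the listed interferon genes in the other sets of cells. Without Ifitm3 the sum was 310, 207 and 809 CPM in Ltf-low cells of libraries 1, 2 and 3, 361, 256 and 830 CPM in the promyelocyte gate, 1436, 894 and 3422 CPM in the mature gate and 825, 689 and 1537 CPM in all other cells. Of the 20 genes 19, 17, 20 and 16 had their highest level in library 3 in these 4 sets, in the same order. Isg15 had 101, 90.2 and 412 CPM in mature-gate cells of libraries 1, 2 and 3 and 52.0, 90.7 and 235 CPM in the cells outside the gates. Isg15, Rsad2, Oasl2 and Slfn5 were called lower in Ltf-rich than in mature-gate cells. Ifit1 did not share that order in the cells outside the gates, with 34.6, 38.7 and 33.1 CPM. The part of free RNA in the levels of Ltf-rich cells was not tested.

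**Figure D5:**
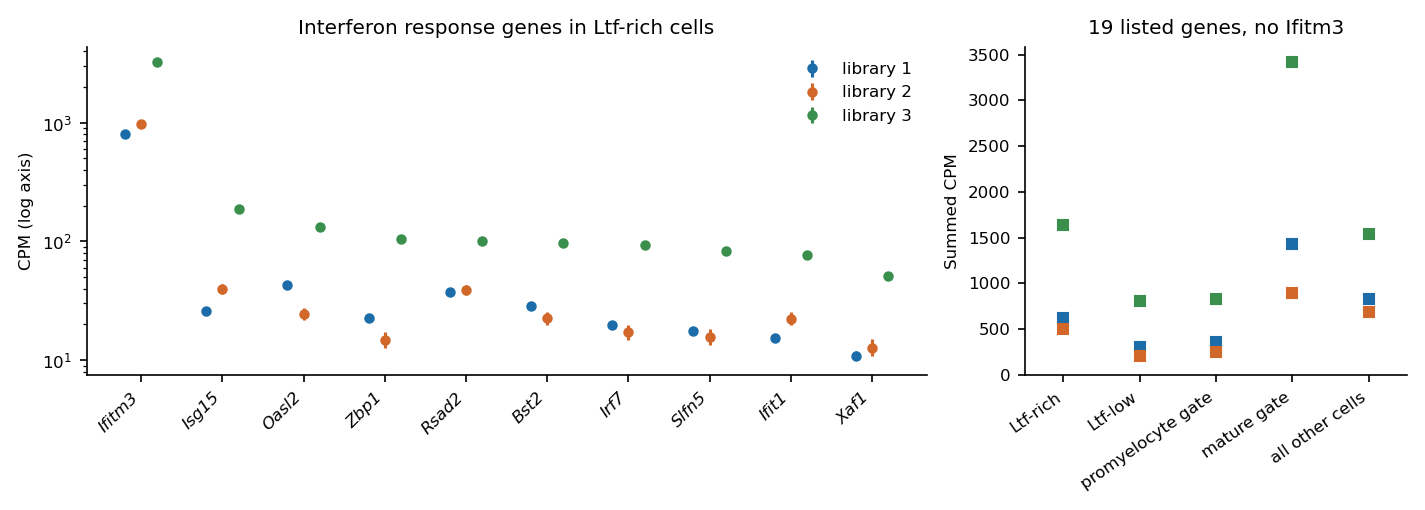
Points (left) give the level (CPM, log axis) of the 10 interferon response genes called higher in library 3, in Ltf-rich cells of each library, with exact Poisson 95% intervals for counting error, most of them smaller than the point. Squares (right) give the summed CPM (linear axis) of the other 19 listed genes, without Ifitm3, in 5 sets of cells, with library 3 at 1637 in Ltf-rich cells and highest in each of the 5.

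Outside the interferon list, the gene with the largest fold in library 3 was Lipg, which encodes endothelial lipase, with 10.1, 4.28 and 190 CPM in libraries 1, 2 and 3, 18.8-fold (17.1 to 20.6) above library 1. Its level in Ltf-low cells was 17.98, 10.6 and 179 CPM, in mature-gate cells 3.56, 2.50 and 56.2 CPM, and in cells outside the gates 4.01, 2.52 and 3.89 CPM. Lipg thus stood high in library 3 in neutrophil gates and not in the other cells. Prok2, a chemokine-like secreted protein, had 10.1, 8.57 and 52.9 CPM, and Ifi27l2a, another interferon-induced gene, had 204, 173 and 896 CPM. Wfdc17 had 40.7, 73.1 and 216 CPM, and Trim30d had 11.8, 7.78 and 51.3 CPM. Lipg, Prok2 and Trim30d reached 50 CPM in library 3 only. Lcn2 was also highest in library 3, at 17730 CPM, but at 1.57-fold (1.56 to 1.57) over the lowest library it was not called. Hp, which encodes haptoglobin, had 1111, 896 and 1904 CPM and was not called either.

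The 19 genes lower in library 3 included Cxcr4, the receptor that holds neutrophils in marrow, with 130, 204 and 52.0 CPM in libraries 1, 2 and 3. Its order was the same in mature-gate cells, with 198, 322 and 89.8 CPM. Irf2bp2 had 255, 219 and 87.7 CPM, and Satb1, a chromatin organiser, had 78.9, 83.8 and 32.4 CPM. Fnip1, Cirbp, Fn1 (fibronectin) and Dusp6, a phosphatase of ERK, were among the 8 largest. With TMM factors only 5 genes remained lower in library 3, and the ratios of Cxcr4, Satb1 and Dusp6 missed the 2-fold line.

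Primary granule genes of promyelocytes were among those lower in library 2. Of 10 primary granule genes measured 4 were called lower in library 2: Mpo with 355, 87.9 and 196 CPM in libraries 1, 2 and 3, Elane with 461, 176 and 379 CPM, Prtn3 with 599, 189 and 675 CPM and Ctsg with 81.1, 24.9 and 90.3 CPM. The list median was log2 -1.03 in library 2, beside -0.15 for all genes. In cells outside the gates Mpo stood at 487, 146 and 327 CPM and Elane at 348, 117 and 271 CPM. Those levels follow the same order. Lower calls in library 2 numbered 6 of 11 primary granule genes measured in the cells outside the gates, beside 33 of all 3892 genes. In the mature gate they numbered 3 of 10, beside 36 of all 3049 genes. In the gates with the most of this RNA none of 12 was called lower in library 2. Of all genes 12 of 2927 in Ltf-low cells and 9 of 3275 in the promyelocyte gate were. The list medians were log2 -0.10 in Ltf-low and -0.01 in promyelocyte-gate cells, where Elane had 7484, 10093 and 7633 CPM. Promyelocyte-gate cells were chosen on Elane, Mpo and Prtn3, so the levels of these genes there describe the choice. The part of free RNA was not tested. Library 2 also had the smallest share of promyelocyte-gate cells, 3.85% of kept cells, against 7.78% and 6.26% in libraries 1 and 3.

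The stefins are cytosolic inhibitors of cathepsins that mouse neutrophils gain late. Stfa2 had 45.8, 5.42 and 89.2 CPM in libraries 1, 2 and 3, and Stfa3 had 50.2, 10.6 and 66.6 CPM. The related Cstdc5 had 130, 39.3 and 256 CPM, and Asprv1, a skin-type aspartic protease, had 219, 97.1 and 298 CPM. All 4 were called lower in library 2. Of 10 genes of S100 proteins and stefins measured only Stfa2 and Stfa3 were called, and the list median in library 2 was log2 0.24. Stfa1 had 169, 85.6 and 278 CPM and Stfa2l1 had 99.0, 79.8 and 134 CPM, neither of them called, and Cstb was highest in library 2 with 51.7, 76.8 and 57.4 CPM. In mature-gate cells the order was the same for Stfa2, with 271, 47.3 and 307 CPM, whereas cells outside the gates held 1.18, 0.275 and 1.41 CPM. Genes of the stefin and Cstdc cluster are close copies of each other, so reads may be split between them and each value is uncertain.

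Library 1 had 4 genes higher, of which Jun and Fosb encode immediate-early factors. Jun had 236, 89.7 and 91.7 CPM in libraries 1, 2 and 3, 2.58-fold (2.45 to 2.72) above the nearer library. Fosb had 59.7, 27.1 and 16.4 CPM. Junb, with 383, 416 and 314 CPM, and Fos, with 238, 311 and 288 CPM, did not share that order. The other 2 were Igkc, an immunoglobulin light chain of B lineage cells (63.6, 27.2 and 22.1 CPM), and mt-Nd5, a mitochondrial gene (341, 157 and 153 CPM). With TMM factors 2 genes were called, and Fosb and mt-Nd5 were not among them.

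Globin RNA differed between the libraries. The 8 genes with the largest fold among the 14 called lower in library 1 were Hbb-bs, Hba-a2, Hba-a1, Hbb-bt, Car2, Slc4a1, Blvrb and Mgp. Hbb-bs, a beta globin gene, had 247, 6164 and 2759 CPM in Ltf-rich cells of libraries 1, 2 and 3 and 2339, 41447 and 23286 CPM in cells outside the gates. The 6 erythroid markers summed to 528, 12657 and 5551 CPM in Ltf-rich cells, and 34, 137 and 90 of the cells held at least 50 of them per 10000 UMIs. Ptgds, Ptn, Clu, Dcn and Mgp were picked from the 22 genes called higher in library 2 after their values were seen. They are known from stromal cells among others and were 3.28-fold to 8.79-fold higher in library 2 than in the nearer library. All of them reached 50 CPM in library 2 only, so these calls are descriptions. Bpifa1, a secreted protein of airway and middle ear lining, had 70.6, 299 and 8.09 CPM. It was called higher in library 2 and had the largest fold of the genes called lower in library 3. Its order was not the same in other gates. It had 90.6, 12.9 and 7.69 CPM in Ltf-low cells and 294, 23.9 and 265 CPM in mature-gate cells. When the erythroid-rich members were left out, a choice made after seeing the data, 12 genes stayed higher in library 2 and 8 lower in library 1, while 10 interferon genes were still higher in library 3. The part of RNA from other cells in the remaining calls was not tested.

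Marker lists of further cell types were read in the same way. Summed levels ran from 37.9 to 64.1 CPM for 6 T and NK cell markers, from 75.3 to 105 CPM for 6 B lineage markers, from 4.28 to 5.81 CPM for 5 eosinophil markers and from 11.1 to 15.7 CPM for 5 endothelial markers. Most of the T and NK sum was Nkg7, with 54.7, 34.1 and 51.1 CPM in libraries 1, 2 and 3. Nkg7 is also on the primary granule list. Monocyte markers summed to more, 1655, 1309 and 1508 CPM in libraries 1, 2 and 3, of which Ly6c2 held 1462, 1170 and 1360 CPM. The part of monocytes in the results was not tested. In libraries 1, 2 and 3 the fibrocyte and fibroblast markers summed to 78.2, 316 and 164 CPM. The sums ran from 53.2 to 104 CPM for macrophage, from 44.8 to 99.1 CPM for dendritic, from 12.5 to 77.3 CPM for basophil and mast, from 6.16 to 24.95 CPM for platelet and from 81.7 to 118 CPM for Schwann cell markers. At 0 stood only Epx, an eosinophil peroxidase, in library 1.

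Several gene groups gave no call between libraries among Ltf-rich cells, but with 0.146% to 1.13% of all genes called per library and direction, nothing is read from that in lists this small. None of 17 secondary granule, 7 gelatinase granule, 11 DNA replication, 20 mitosis, 7 cell cycle exit, 11 oxidase, 4 iron handling, 9 nuclear envelope and chromatin, 6 stress response, 3 apoptosis and 10 myeloid transcription factor genes was called in any library. Hist1h2ap, a histone gene outside these lists, was called higher in library 2, with 99.3, 443 and 111 CPM in libraries 1, 2 and 3. Cebpe was within 1.70-fold (399, 277 and 472 CPM) and Spi1, the factor PU.1, within 1.38-fold. Of 20 mature neutrophil genes Il1r2, a decoy receptor for interleukin 1 with 69.7, 68.7 and 150.1 CPM, and Wfdc17 were called higher in library 3, Ccl6 lower there and Asprv1 lower in library 2. Of 8 heat shock genes only Hspe1, a mitochondrial chaperonin partner, was called, higher in library 3 with 40.7, 41.5 and 84.3 CPM. Of 7 genes of cytokines and activation only Cxcl2, a neutrophil chemokine, was called, higher in library 3 with 70.4, 49.7 and 154 CPM.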

How the data were processed

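Droplet 3′ single-cell RNA-seq of cochlear cells was measured in 3 libraries, 1 per group. The authors deposited 1 table of UMI counts per gene and cell, made with Cell Ranger 7.1.0 per the file headers and on GRCm39 per the submitters' processing notes; no other step is stated in what was used here. Barcodes numbered 39092, of which 37188 were kept (17720, 10028 and 11344 barcodes end in 1, 2 and 3). The members and gene lists were chosen with earlier results of these data known. Counts were summed over cells per library and gate and divided by the total (CPM). Shares carry exact Clopper-Pearson intervals, sums exact Poisson intervals and ratios exact conditional binomial intervals, all at 95% and for counting error only.

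Genes to name were drawn from fixed sets, and not every member of a set is named. Per list, these were the 2 with the highest CPM and the 2 with the largest ratio between libraries. Per library and direction, they were the 8 called genes with the largest fold against the nearer library. Against Ltf-low cells, they were the 10 with the largest median fold each way. Ltf, Ngp, Camp, Lcn2 and Cd177 were always named. Genes named in the comparison with mature-gate cells, and a few others, were chosen after their values were seen. Scrublet (scanpy 1.11.5, set to expect 6%) marked doublets, which were kept. TMM factors came from edgeR 4.0.16 in R 4.3.3, and no test was run with it. The rest ran in Python 3.11.15 with pandas 2.3.3, scipy 1.17.1, numpy 2.4.6 and matplotlib 3.10.9. The calling rule was tested on simulated data. The values of 1 gene are not reported here. Promoter sequences are on another build than the counts and were matched by gene symbol.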

Additional observations from a re-analysis of the deposited data

How the results depend on the processing

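No paired analysis was possible because the endings of the barcodes match no sample and each group has 1 library. Of the main results and alternatives compared, 58 stayed within their error or within 1.5 times and 34 moved. These results are shares and counts, and a turn of direction was not scored for them. The order of libraries 2 and 3 in the mitotic share, for example, was not the same with and without Hmgb2. The share of Ltf-rich cells in library 1 was 37.5% with at most 10% mitochondrial UMIs, 37.0% with Ltf at 10 or more, 34.3% with Ltf at 40 or more and 31.3% with the sum at 400 or more. The last 2 settings gave 11.3% and 9.90% in library 2, and 11.5% and 10.4% in library 3. Genes called higher in library 1, higher in library 3 and lower in library 3 numbered 2, 61 and 5 with TMM factors and 2, 56 and 6 with median-of-ratios size factors. All 31 genes higher in library 3 were kept with TMM factors. With no minimum of UMIs or CPM, 300 genes were higher and 3418 lower in library 1, 2435 higher and 256 lower in library 2, and 231 higher and 1058 lower in library 3. A gene without UMIs in a library was given 3 counts there as a floor. With no minimum, a gene with few UMIs seen only in library 1 can thus be called lower in library 1. Nothing is read from these counts as differences between libraries. Without called doublets 7 genes were lower in library 1, and 230 were lower in Ltf-rich than in Ltf-low cells. With Ltf at 40 or more 12 genes were higher in library 2. Without erythroid-rich cells, an alternative chosen after seeing the data, 8 were lower in library 1 and 12 higher in library 2. The interferon count in library 3 was 10 or 11 in these settings and 14 with no minimum. The mitotic share in libraries 1, 2 and 3 was 94.1%, 92.5% and 90.0% at 2000 UMIs, 61.2%, 58.4% and 53.7% with at least 3 UMIs, and 38.5%, 31.1% and 36.9% without Hmgb2. The causes of these moves were not tested. Where there is no minimum, more genes were compared and the floor acted on those with few UMIs. Of the single named genes 38 comparisons no longer passed the 2-fold line and none turned direction. With 1 library per group, no spread between mice can be given.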
